A study of Sus scrofa with 18 samples.

Results

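The comparison sets kidneys of the carbon monoxide (CO) arm of a pig transplantation study, sampled at 4 h, against naive kidneys that were not transplanted. Its members are 4 of the 18 Affymetrix pig arrays (CO, donors 1 to 4) with 2 naive arrays as the reference, chosen by the source label, with 1 array per kidney and total RNA as the material. Other groups used beside it were untreated transplanted kidneys of donors 1 to 4 at 4 h (n = 4) and CO kidneys of donors 5 to 8 at 24 h (n = 4). The labels give no breed, sex, age, genotype or CO dose, and do not say whether the donor, the organ or the recipient was given CO.

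Naive kidneys carry no donor number and no time. They differ from the CO kidneys in transplantation, time and CO at once, so the effects of these on the difference from naive cannot be told apart; only the comparison with untreated transplanted kidneys isolates CO. One characteristic of the CO arrays reads air, while their title and source name CO, and the title and source were followed. The numbers in the names of the naive array files are also those of the CO and untreated arrays of donor 4, so some of these kidneys may come from the same pig, which the tests do not take into account. Apart from the donor numbers nothing in the labels ties an array to an animal, so p-values measure the spread between these arrays, part of which may be technical.

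A kidney moved from donor to recipient loses its blood supply and regains it. Cells that lack oxygen run short of ATP and their proteins misfold, and when blood returns, oxidants and calcium add to the injury, above all in the proximal tubule, which depends on mitochondrial fat oxidation. Heat shock factor then switches on chaperones, ATF4 and the unfolded protein response adjust translation, immediate early genes and p53 targets respond to damage, and surviving tubule cells dedifferentiate before they rebuild the epithelium. CO is a product of heme breakdown by heme oxygenases, encoded by HMOX1 (inducible) and HMOX2 (constitutive), and is studied in transplantation as a gas that can limit such injury.

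By 4 h the CO kidneys had far higher RNA levels of chaperones, tubular injury markers, immediate early genes and the cytokine gene LIF than the naive kidneys, and lower levels of stromal genes, of 2 subunits of the renal proton pump and of many mitochondrial genes. The limma test called 3254 of the 23999 probe sets (13.6%) at an adjusted p under 0.05. Of these, 1641 were higher with CO (6.84% of those tested) and 1613 lower (6.72%), while 6809 reached an unadjusted p under 0.05. Rises were larger than falls: 264 probe sets were at least 4-fold higher and 49 at least 4-fold lower among those that passed, and 70 against 2 differed at least 8-fold. The median difference of the probe sets that passed was 1.21 for rises and -1.0 for falls, on the log2 scale used throughout, where 1 is a doubling. Over all probe sets the median was -0.01. With the brightest probe set taken for each of 6765 named genes, 663 rose (9.8%) and 726 fell (10.7%), and the median over these genes was -0.08. The gene lists are read against these shares. Lists and members were chosen with earlier results of these data known, so their shares describe the data and are not a test.

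Arrays of a group correlated closely, and arrays of different groups a little less. Log2 values of the naive arrays correlated at 0.988, those of CO arrays with each other at 0.962 to 0.989, and those of naive with CO arrays at 0.932 to 0.960. Array names fall into batches, with naive 1 and CO donors 1, 3 and 4 in one and naive 2 and CO donor 2 in another. The median ratio of the within-batch to the pooled difference was 1.01 in the first and 0.943 in the second over the probe sets that passed. These probe sets were called from the same arrays, so a ratio near 1 is no separate check of the batches. The count of calls rested on both naive arrays: it was 79 without naive 1 and 1 without naive 2, 1442 without CO donor 1 and 1882 without CO donor 3. It was 7037 with array weights and 0 (6229 with an unadjusted p under 0.05) with the 24 h groups left out of the fit. The untreated 4 h array of donor 1 stood nearer to naive than the rest of its group; without that array the fit lacking the 24 h groups gave 3017 and the fit over all groups 4146.

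**Figure D1:**
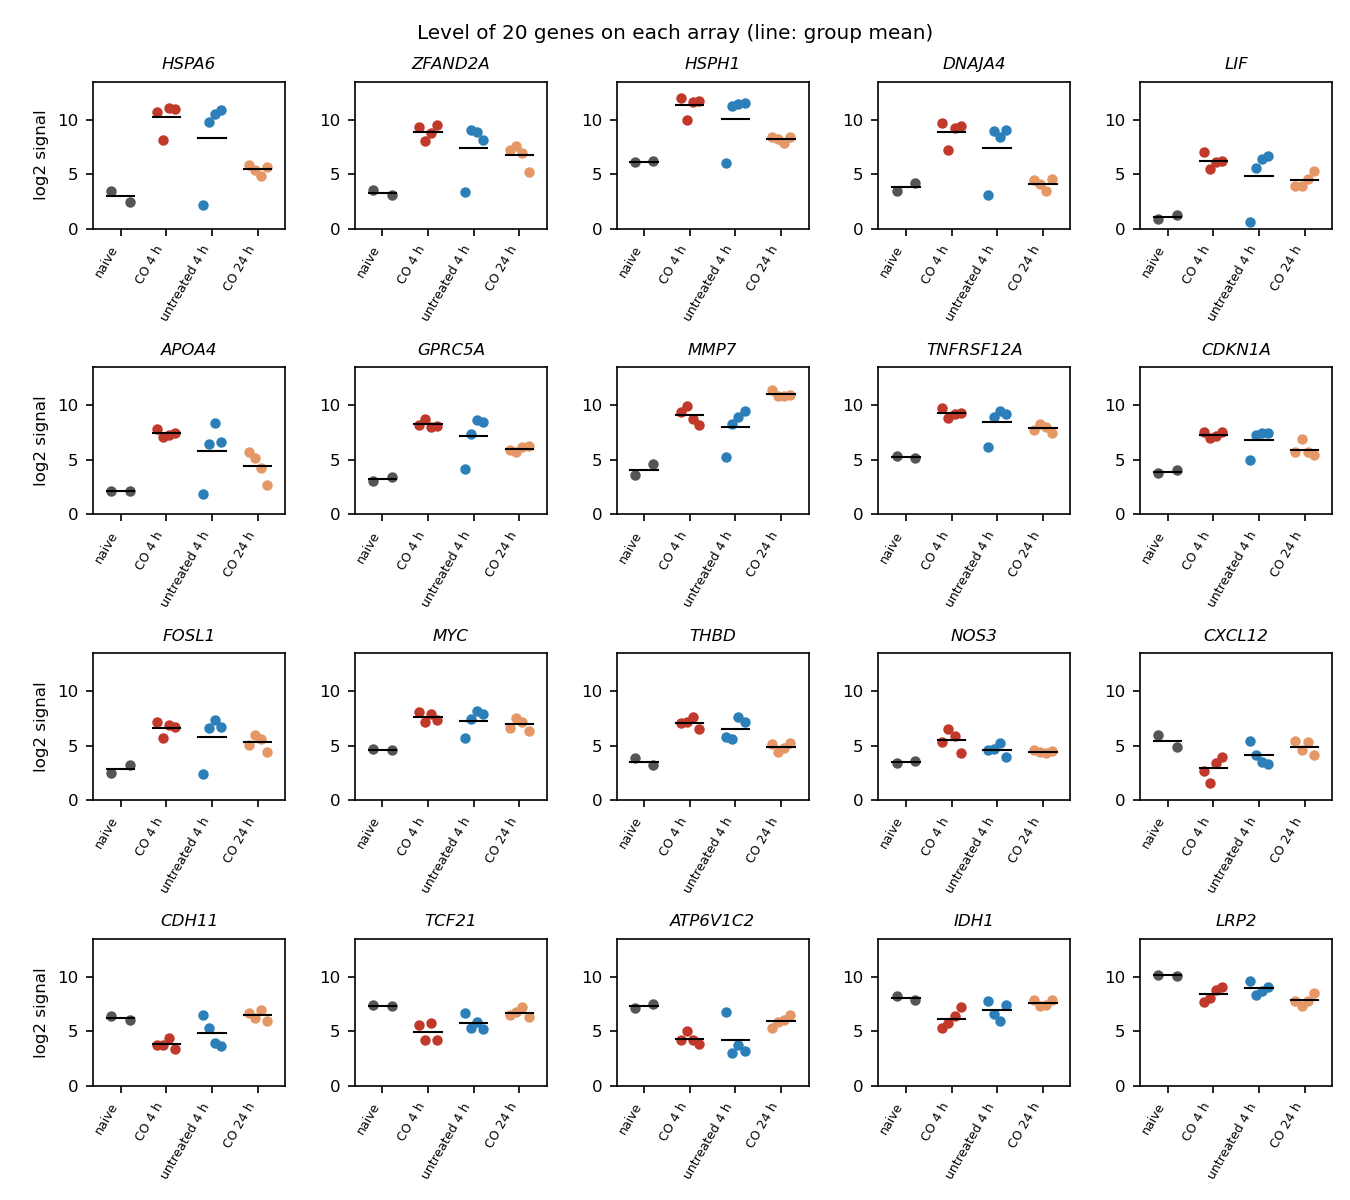
Log2 signal (y axis) of 20 genes on each array of the naive, CO 4 h, untreated 4 h and CO 24 h groups (x axis); each point is 1 array and each line a group mean. HSPA6, at 2.45 and 3.47 on the naive arrays, lies between 8.12 and 11.04 on the CO 4 h arrays, and CXCL12, at 4.92 and 6.00 on the naive arrays, lies between 1.58 and 3.96.

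Chaperones of the heat shock response and tubular injury markers had the highest medians of the 34 lists, 1.80 and 1.75, and which was higher changed with the processing and with the array left out. Of 36 measured heat shock chaperones and cochaperones, 24 rose and 0 fell (66.7% and 0%, against 9.8% and 10.7% of all genes), with a median difference of 1.80, and 27 had every CO array above both naive arrays, as did 19.9% of all genes. HSPA6, a strictly stress-inducible HSP70, had log2 levels of 3.47 and 2.45 on the naive arrays and 10.74, 8.12, 11.04 and 10.95 on the CO arrays of donors 1 to 4. Every CO array was far above both naive arrays, and the array of donor 2 was the lowest. The difference was 7.25 ± 1.70 (SE), or 153-fold (adjusted p = 0.0137). ZFAND2A, a stress-induced protein that binds the proteasome, went from 3.52 and 3.08 to 9.31, 8.06, 8.78 and 9.50 (5.61 ± 1.17, adjusted p = 0.00873). HSPH1, which recharges HSP70 with ATP, stood at 6.08 and 6.21 on naive arrays and at 11.94, 10.01, 11.60 and 11.73 on CO arrays (5.18 ± 1.06, adjusted p = 0.00842). In both genes the groups lay well apart, again with donor 2 the lowest CO array.

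The DnaJ cochaperones, which hand clients to HSP70, rose too. DNAJA4 had levels of 3.46 and 4.23 in naive kidneys and 9.68, 7.20, 9.23 and 9.43 in CO kidneys (5.04 ± 1.20, adjusted p = 0.0145). DNAJB1 rose by 4.15 ± 0.95 (adjusted p = 0.0125). HSP70.2, the pig's inducible HSP70, whose near-identical copies a probe set may not separate, was bright already in naive kidneys, at 8.88 and 8.30, and reached 12.49, 10.92, 12.48 and 12.50 with CO (3.51 ± 0.86, adjusted p = 0.0165). Its other probe sets rose by 4.16 and 3.18. CRYAB, a small heat shock protein of the lens and of stressed tissue, went from 7.66 and 7.63 to between 11.21 and 11.64 (3.75 ± 0.78, adjusted p = 0.00854), with CO arrays close together.

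Further members that passed were the cochaperone BAG3 (3.23), the small heat shock proteins HSPB8 (3.15) and HSPB1 (2.93), the collagen chaperone SERPINH1 (2.39), the inducible HSP90AA1 (2.22) and its constitutive relative HSP90AB1 (1.37), the constitutive HSPA8 (1.91) and the mitochondrial HSPD1 (1.00). The heat shock factors HSF1 (0.28) and HSF2 (0.69) and the mitochondrial HSPA9 (0.42) did not pass. The list's mean level above naive was 2.25, 1.27, 2.14 and 2.35 in CO donors 1 to 4. Without naive 1 or without naive 2, 0 members passed.

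**Figure D2:**
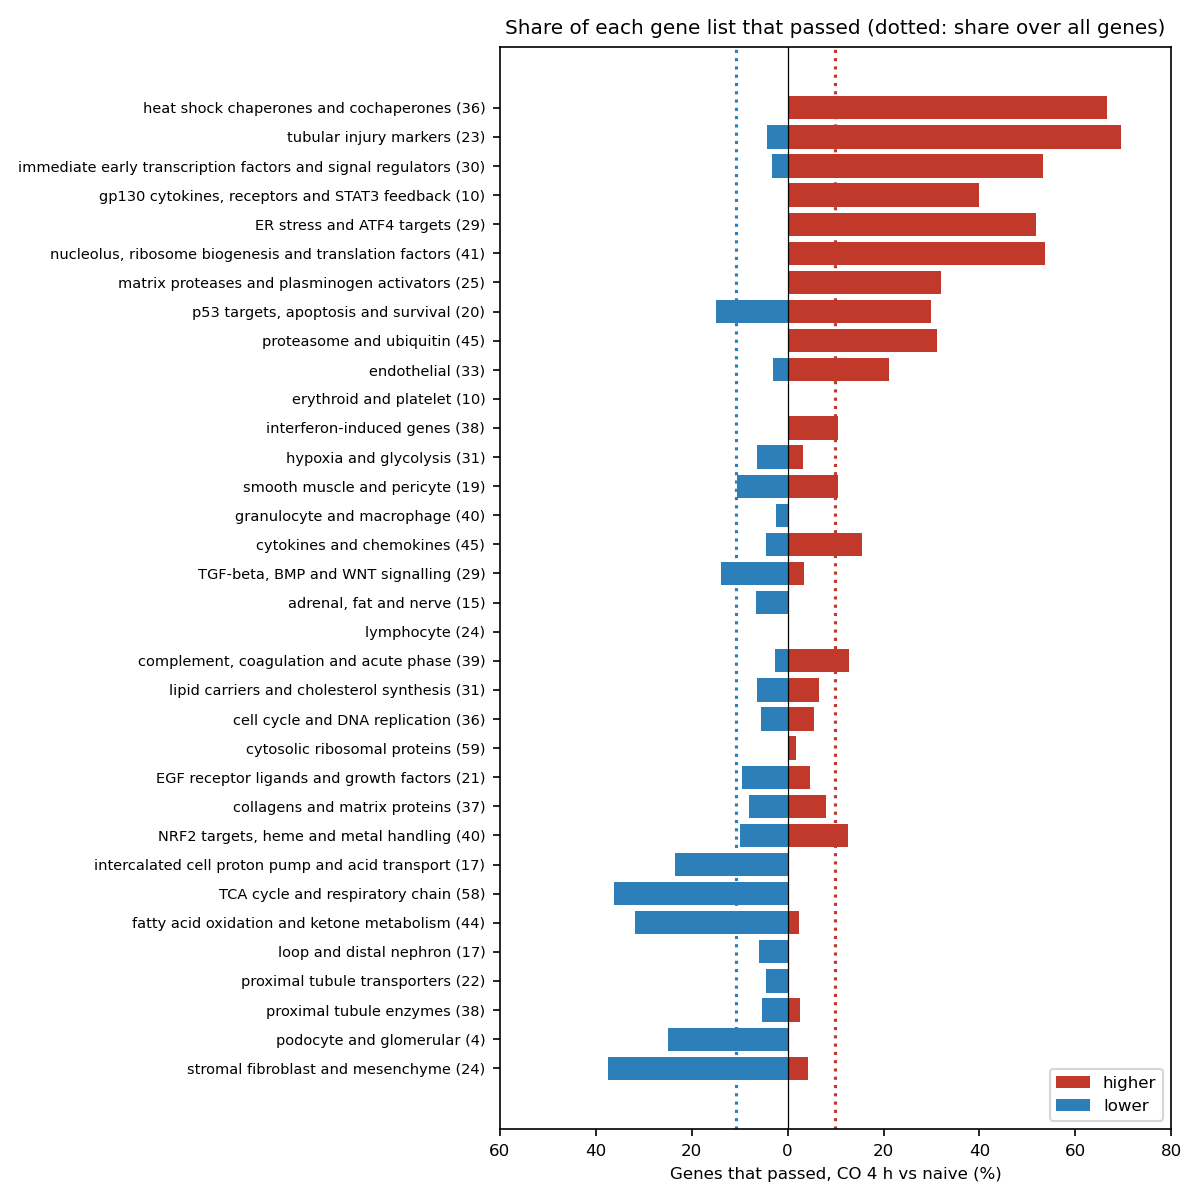
Share of the measured genes of each list (number in parentheses) that were higher (red, to the right) or lower (blue, to the left) in CO 4 h than in naive kidneys, in percent; dotted lines are the shares over all 6765 genes, 9.8% and 10.7%. Heat shock chaperones (66.7% higher) and tubular injury markers (69.6% higher) extend farthest to the right, and stromal genes (37.5% lower) and the TCA cycle and respiratory chain (36.2% lower) farthest to the left.

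Immediate early genes, which need no new protein to be switched on after a stimulus, formed the next group. Of 30 measured, 16 rose and 1 fell, with a median of 1.22. FOSL1, a partner of JUN in the AP-1 factor, had levels of 2.53 and 3.23 in naive kidneys and 7.14, 5.68, 6.87 and 6.67 in CO kidneys (3.71 ± 0.95, adjusted p = 0.0196). FOS itself went from 5.83 and 5.70 to 8.82, 7.37, 10.12 and 10.56 (3.45 ± 1.09, adjusted p = 0.0452). Both were lowest in CO donor 2, without overlap with naive. MYC, a driver of growth and ribosome production, was at 4.65 and 4.64 and then at 8.07, 7.13, 7.86 and 7.32 (2.95 ± 0.51, adjusted p = 0.00517). CYR61, a secreted matrix-associated protein, rose by 2.37 ± 0.53. JUN (2.10), KLF4 (2.24), ZFP36, which destabilises cytokine mRNAs (2.24), EGR1 (1.65) and DUSP6, a phosphatase of ERK (1.58), passed as well. The member that fell was NR4A2 (-1.14), an orphan nuclear receptor. ATF3, with a difference of 2.47, did not pass. Of the rises, 2 passed without naive 1, 0 without naive 2, 9 without CO donor 1 and 10 without CO donor 3.

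Cytokines that signal through gp130 and STAT3 were represented by LIF, a cytokine of the interleukin-6 family. LIF was below background on both naive arrays (0.90 and 1.23, with background at 1.61) and at 7.05, 5.45, 6.14 and 6.22 on CO arrays, at least 24.4-fold higher (adjusted p = 0.0106). "At least" sets the bright group against the background level, which was taken from control probe sets. STAT3 itself rose by 1.58 ± 0.30 (adjusted p = 0.00696), its feedback inhibitor SOCS3 by 1.21 ± 0.38 (adjusted p = 0.0467) and TIMP1, an inhibitor of matrix proteases, by 3.05 ± 0.86 (adjusted p = 0.0289). These were the 4 of 10 measured members that passed, and 0 fell. SOCS3 was dim, with a mean of 2.91 in CO kidneys against a background of 1.61. IL6 lay at 1.97 and 1.14 in naive and at 3.16, 2.66, 2.52 and 2.06 in CO kidneys, close to background, and did not pass (1.04 ± 0.35, adjusted p = 0.0572). Of the 4 rises, 0 passed without either naive array, 2 without CO donor 1 and 2 without CO donor 3.

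Targets of ATF4 and of the unfolded protein response of the endoplasmic reticulum (ER) rose in 15 of 29 cases and fell in 0, with a median of 0.93. DDIT3, which encodes the proapoptotic factor CHOP, was at 4.16 and 4.43 in naive kidneys and at 8.23, 5.97, 6.80 and 8.59 in CO kidneys (3.10 ± 0.83, adjusted p = 0.0244). The CO arrays spread widely but stayed above naive. ASNS, asparagine synthetase and a target of ATF4, went from 5.18 and 5.37 to 8.59, 8.02, 7.70 and 8.36 (2.89 ± 0.52, adjusted p = 0.00554). ATF4 rose by 2.50 ± 0.42 (adjusted p = 0.00473) and the transcription factor CEBPB by 2.76 ± 0.48 (adjusted p = 0.00517). PPP1R15A, which restores translation after stress, was 2.11 higher and HSPA5, the main ER chaperone, 1.90 higher. XBP1 (0.41), CALR (0.17) and the serine synthesis enzymes PHGDH (-0.91) and PSAT1 (-1.04) did not pass. The number of rises was 0 without either naive array, 8 without CO donor 1 and 9 without CO donor 3.

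Among p53 targets and genes of apoptosis and survival, 6 of 20 rose and 3 fell. CDKN1A, the p53-regulated inhibitor of the cell cycle p21, had naive levels of 3.77 and 4.10 and CO levels of 7.55, 7.02, 7.15 and 7.58 (3.39 ± 0.54, adjusted p = 0.00405). PHLDA2 (3.21 ± 0.71, adjusted p = 0.0113), the stress sensor GADD45B (2.45 ± 0.45, adjusted p = 0.00605) and the initiator caspase CASP8 (1.36 ± 0.35, adjusted p = 0.0213) rose, as did the inhibitor of NF-kappaB NFKBIA (1.19) and the caspase 8 regulator CFLAR (0.92). TP53I3 (-1.35), SESN1 (-1.17) and BID (-0.73) fell, and the first 2 of these are p53 targets too. Cell cycle genes showed no common direction, with 2 of 36 higher and 2 lower. They were CDKN3, a phosphatase of CDKs (2.06 ± 0.45), CKS2, a CDK subunit (1.5 ± 0.45), the replication factor CDC45 (-0.85 ± 0.27) and the pocket protein RBL2 (-1.18 ± 0.28). No gene of either list passed without naive 1 or naive 2; without CO donor 1, 3 p53 and apoptosis genes rose, and without CO donor 1 or CO donor 3, 1 cell cycle gene rose and 1 fell.

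Genes for protein production and disposal rose in number but less in size. Of 41 factors of the nucleolus, ribosome biogenesis and translation, 22 rose and 0 fell (median 0.80). GNL3, the nucleolar GTPase nucleostemin, went from 5.06 and 4.99 to 7.43, 7.05, 7.07 and 6.47 (1.98 ± 0.30, adjusted p = 0.00397). NOP56, of the small nucleolar particles that modify ribosomal RNA (1.63 ± 0.30), EIF4A1, the helicase of translation initiation (1.59 ± 0.27), and the nucleolar helicase DDX21 (1.59 ± 0.32) followed. Cytosolic ribosomal proteins did not share this: 1 of 59 rose, 0 fell and their median was -0.14. That gene was RPL30 (1.49 ± 0.30), at a dim probe set with 1.27 and 1.95 in naive kidneys. Of 45 proteasome and ubiquitin genes, 14 rose and 0 fell (median 0.44), among them the proteasome activator PSME4 (1.49 ± 0.27), the regulatory subunit PSMD12 (1.47 ± 0.28), the core subunit PSMA5 (1.35 ± 0.29) and SQSTM1, which carries ubiquitinated cargo to autophagy (1.42 ± 0.43). Without naive 1, 1 nucleolar gene and 0 proteasome genes passed, without naive 2 neither list had any, and without CO donor 1 or CO donor 3, 7 proteasome genes rose in each case.

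Injured tubule cells are known for a set of genes, and of 23 such tubular injury markers measured, 16 rose and 1 fell (69.6% and 4.35%), with a median of 1.75. HAVCR1 and LCN2, the best known of them, were not measured under those symbols. GPRC5A, an orphan receptor, had naive levels of 3.10 and 3.39 and CO levels of 8.19, 8.71, 8.06 and 8.15 (5.03 ± 0.81, 32.8-fold, adjusted p = 0.00407). MMP7, the matrix protease matrilysin, was at 3.61 and 4.63 and then at 9.40, 9.97, 8.79 and 8.19 (4.97 ± 0.80, 31.4-fold, adjusted p = 0.00416). TNFRSF12A, the receptor Fn14, went from 5.41 and 5.16 to 9.73, 8.89, 9.17 and 9.31 (3.99 ± 0.62, adjusted p = 0.00397). In each of these genes all CO arrays lay far above both naive arrays.

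The tight junction gene CLDN4 (3.01), the secreted phosphoprotein SPP1 (2.91), the annexins ANXA2 (2.84) and ANXA1 (2.65), and the keratins KRT18 (2.41) and KRT8 (1.67) rose with them. PROM1, a membrane protein of epithelial progenitors, fell (-1.41). SOX9, a transcription factor of regenerating tubules, was below background in naive kidneys and differed by 0.03, and VIM (0.90) and VCAM1 (0.44) did not pass. The list's mean level above naive was 2.13, 2.38, 1.83 and 1.80 in CO donors 1 to 4, so donor 2, lowest for chaperones, was highest here. Of the rises, 1 passed without naive 1, 0 without naive 2 and 10 without CO donor 1.

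Matrix proteases and plasminogen activators rose in 8 of 25 cases and fell in 0. ADAMTS1, a secreted protease made by endothelium and tubules, was at 6.90 and 6.70 in naive kidneys and at 10.99, 10.75, 10.61 and 9.93 in CO kidneys (3.77 ± 0.74, adjusted p = 0.00741). PLAU, urokinase, rose by 3.24 ± 0.79 (adjusted p = 0.0162) and PLAT, tissue plasminogen activator, by 3.16 ± 0.63 (adjusted p = 0.00769). Collagens and other matrix proteins did not move together, with 3 of 37 higher and 3 lower. The fibronectin receptor subunit ITGA5 rose by 2.80 ± 0.67 and THBS1, thrombospondin, by 1.40 ± 0.38, with further probe sets of THBS1 between 0.60 and 3.63. MFAP5, of elastic microfibrils, fell by 1.94 ± 0.46; its naive arrays were far apart, at 5.96 and 3.87, and within the batches the difference was -3.19 and -0.28. ITGA8, an integrin of the mesangium and stroma, fell by 1.58 ± 0.42. No protease or matrix gene passed without either naive array, and without CO donor 1 or CO donor 3, 5 rose in each case; of the matrix genes 1 rose and 1 fell without either of these CO donors.

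**Figure D3:**
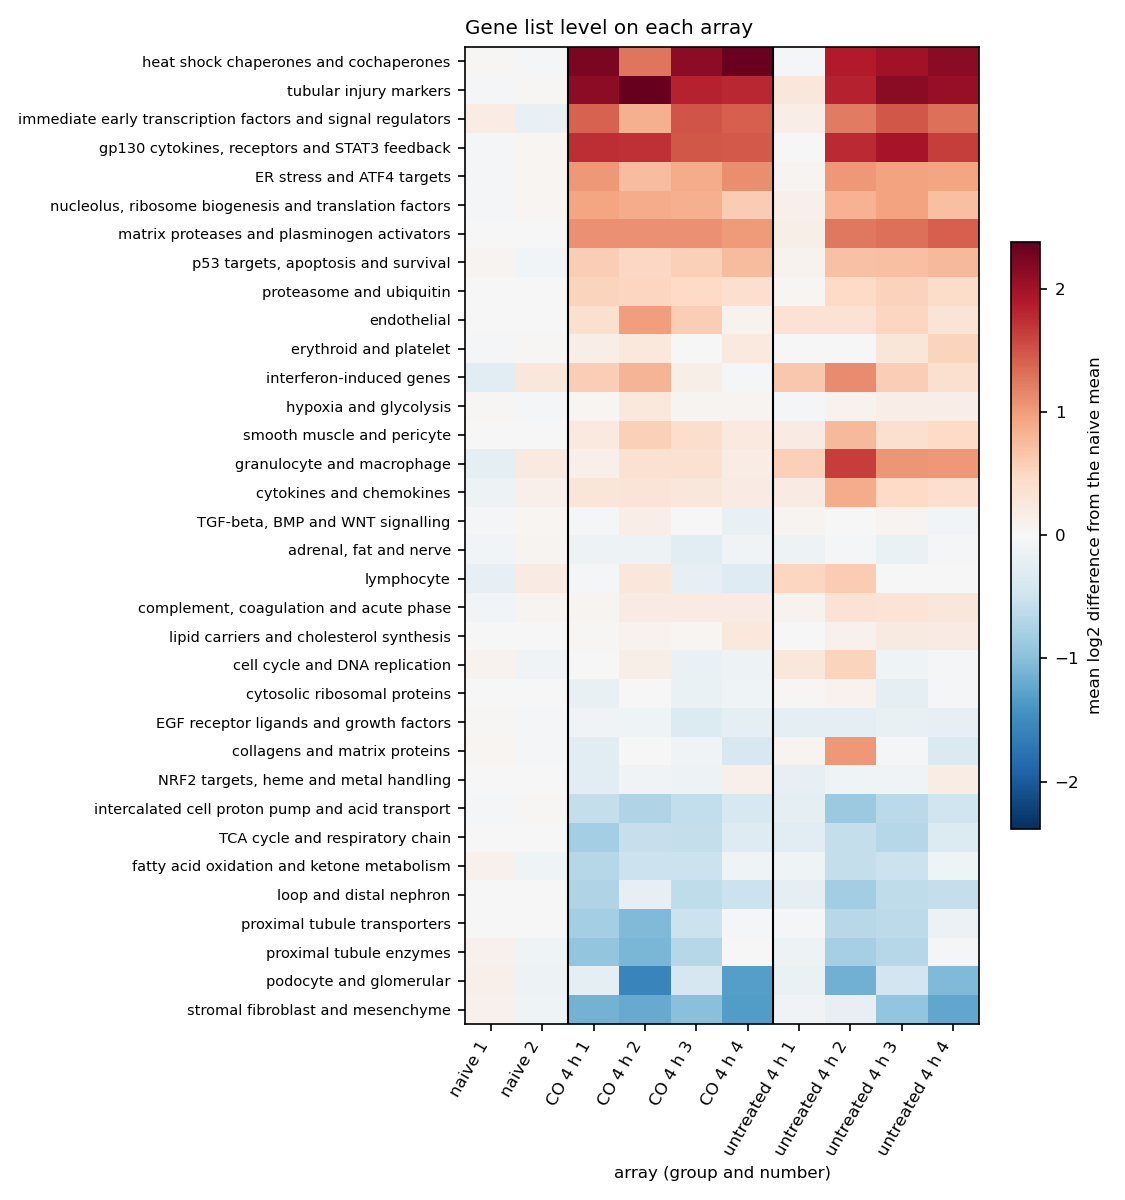
Mean log2 difference from the naive mean over the measured genes of each list (rows, ordered by median difference), for each naive, CO 4 h and untreated 4 h array (columns); red is above and blue below naive. Heat shock chaperones are at 1.27 to 2.35 on the CO 4 h arrays and at -0.04 on the untreated 4 h array of donor 1. That array is paler than the other transplanted kidneys in many rows but not in all. In granulocyte and macrophage genes it is at 0.57, against 0.13 to 0.37 on the CO 4 h arrays.

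Of 33 endothelial genes, 7 rose (21.2%) and 1 fell. THBD, thrombomodulin, which turns thrombin into an activator of protein C, was at 3.84 and 3.24 in naive kidneys and at 7.05, 7.18, 7.65 and 6.53 in CO kidneys (3.56 ± 0.48, adjusted p = 0.00267). PROCR, the receptor that presents protein C to it, rose by 2.22 ± 0.65 (adjusted p = 0.0337). NOS3, endothelial nitric oxide synthase, had 3.41 and 3.6 in naive kidneys and 5.34, 6.51, 5.88 and 4.28 in CO kidneys (2.00 ± 0.44, adjusted p = 0.0111). The CO arrays of NOS3 were spread but did not overlap naive. ICAM1, the adhesion molecule for leukocytes, rose by 2.22 ± 0.45 (adjusted p = 0.00808). ANGPT1, made by perivascular cells to quiet the endothelium through the receptor TEK, went from 3.98 and 4.11 down to 1.47, 1.88, 2.07 and 1.97 (-2.20 ± 0.41, adjusted p = 0.00646), near background. PECAM1 (0.39), CDH5 (1.16), VWF (-0.90) and TEK (-0.85) did not pass. The number of rises was 1 without naive 1, 0 without naive 2 and 10 without CO donor 4 (5 without each of the other CO donors), and 3 fell without CO donor 2.

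In the complement, coagulation and acute phase list, 5 of 39 rose and 1 fell. Besides THBD and PROCR these were CD46 (2.02 ± 0.45, adjusted p = 0.012) and CD55 (1.99 ± 0.54, adjusted p = 0.0253), which protect host cells from complement, and CLU (1.30). CD46 lay at 7.09 and 7.16 in naive kidneys and at 9.25, 9.39, 9.40 and 8.51 in CO kidneys, while CD55 was dim, at 1.77 and 1.43 and then at 3.31 to 3.84. SERPIND1, an inhibitor of thrombin, fell by 1.16. The complement genes C3 (-1.19) and C4A (-1.10) did not pass. Without naive 1, 1 of these rises passed, without naive 2, 0, without CO donor 1, 2 and without CO donor 3, 3; the fall of SERPIND1 was lost without CO donor 1, 2 or 3 and without either naive array.

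Of 45 cytokines, chemokines and their receptors, 7 rose and 2 fell. CCL2, which attracts monocytes, was at 4.15 and 5.18 in naive kidneys and at 9.30, 7.23, 9.50 and 8.25 in CO kidneys (3.91 ± 1.08, 15-fold, adjusted p = 0.0274), and within the batches the difference was 4.87 and 2.05. CXCL8, a neutrophil chemokine, was below background in naive kidneys and at 3.05, 2.28, 4.15 and 4.08 in CO kidneys, at least 3.44-fold higher (adjusted p = 0.0457). The receptors TNFRSF1B (2.79 ± 0.52), IL1R1 (2.70 ± 0.55), IL4R (2.54), IL13RA1 (1.40) and TNFRSF1A (0.96) rose. IL1B (0.65 ± 0.47, adjusted p = 0.406) and TNF (-0.11 ± 0.33, adjusted p = 0.876) did not pass. The members that fell were CXCL12 and CCL21, described with the stroma. Without naive 1, 1 rise passed, without naive 2, 0, and without CO donor 1 or CO donor 3, 3 in each case.

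Interferon-induced genes rose in 4 of 38 cases (10.5%), close to the share over all genes, and fell in 0. They were ISG15, a ubiquitin-like modifier (2.01 ± 0.48, adjusted p = 0.0148), and the receptor chains IFNAR1 (1.44 ± 0.30), IFNGR1 (1.26 ± 0.35) and IFNAR2 (1.07 ± 0.34). The 3 receptor genes are needed to sense interferon rather than induced by it. IRF1 (1.77), MX1 (1.17) and GBP1 (1.44) did not pass. ISG15 itself differed between the naive arrays, at 5.13 and 6.39, against 7.34 to 8.28 in CO kidneys. Without either naive array 0 passed, and without CO donor 2 or CO donor 3, 2.

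The enzymes that make CO in the body moved little by comparison. HMOX1 had levels of 5.32 and 6.21 in naive kidneys and 6.97, 7.13, 7.06 and 7.34 in CO kidneys, 1.36 ± 0.42 higher (2.57-fold, adjusted p = 0.0417), and the difference within the batches was 1.81 and 0.93. HMOX2, at 7.76 and 7.73 against 6.91, 7.68, 6.94 and 7.61, did not pass (-0.46 ± 0.25, adjusted p = 0.251). BLVRA, which reduces the biliverdin that heme oxygenase leaves to bilirubin, fell from 6.44 and 6.51 to 4.66, 4.33, 5.52 and 5.89 (-1.37 ± 0.36, adjusted p = 0.0229). FECH, the last enzyme of heme synthesis, fell by 0.61, and the ferritin chains FTH1 (-0.18) and FTL (-0.26) did not pass.

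Other targets of the oxidant sensor NRF2 were mixed. In the list of NRF2 targets, heme and metal handling, 5 of 40 rose and 4 fell, with a median of -0.29. TXNRD1, thioredoxin reductase, was at 6.85 and 6.83 in naive kidneys and at 9.91, 9.19, 9.41 and 9.37 in CO kidneys (2.63 ± 0.58, adjusted p = 0.0111). ME1, the cytosolic malic enzyme, rose by 1.39 ± 0.43 (adjusted p = 0.0431), with donor 2 at 5.90 and the others at 4.62 to 4.78, and TXN rose by 0.58. The peroxiredoxin PRDX5 (-0.81) and the transketolase TKT (-0.87) fell, and NQO1 (-0.49), GCLM (1.23) and CAT (-0.32) did not pass. Without either naive array 0 of these genes passed; 1 rose without CO donor 1, 1 without CO donor 2 and 2 without CO donor 3, and 0 and 1 fell without CO donors 1 and 3.

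Hypoxia and glycolysis genes showed no common change, with 1 of 31 higher and 2 lower and a median of 0.13. HIF1A, the oxygen-regulated transcription factor, was 0.83 ± 0.21 higher (adjusted p = 0.0198). Muscle phosphofructokinase PFKM (-1.12 ± 0.34) and the carbonic anhydrase CA12 (-1.26 ± 0.30) fell. VEGFA, a classic target of HIF1A, lay at 7.98 and 7.70 in naive and at 7.96, 6.68, 7.57 and 7.76 in CO kidneys (-0.35 ± 0.40, adjusted p = 0.641), and SLC2A1 (0.37), CA9 (0.08) and PGK1 (-0.43) did not pass. The inducible nitric oxide synthase NOS2, at 2.38 and 3.05 against 2.81 to 3.13, differed by 0.24 ± 0.21 (adjusted p = 0.498). No member of this list passed without either naive array, and 1 fell without CO donor 1 or CO donor 3.

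Stromal genes made up the list with the lowest median. Of 24 stromal fibroblast and mesenchymal genes, 9 fell and 1 rose (37.5% and 4.17%), with a median of -1.32; in tissue RNA, fewer cells of a type and less RNA per cell cannot be told apart. CXCL12, a chemokine that retains leukocytes and progenitors, was at 6.00 and 4.92 in naive kidneys and at 2.71, 1.58, 3.39 and 3.96 in CO kidneys (-2.55 ± 0.75, adjusted p = 0.035). CDH11, the cadherin of mesenchyme, went from 6.41 and 6.07 to 3.76, 3.75, 4.43 and 3.35 (-2.42 ± 0.58, adjusted p = 0.0147). TCF21, a transcription factor of podocytes and stromal cells, was at 7.40 and 7.34 and then at 5.62, 4.24, 5.80 and 4.22 (-2.4 ± 0.45, adjusted p = 0.00646). None of the 3 genes overlapped between groups; CXCL12 was lowest in donor 2 and the others in donor 4.

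NAP1L3, a histone chaperone family member (-2.30 ± 0.44), MEIS2, a homeobox factor (-1.93), MFAP5, ITGA8 and the WNT antagonist SFRP1 (-1.23 ± 0.33) fell too, and so did HECW1 (-2.43 ± 0.63), a ubiquitin ligase that is on the list but is no standard stromal marker. GATA6 rose (1.37), while DCN (-1.61), LUM (-1.71), COL1A2 (-0.62) and PDGFRB (0.01) did not pass. The list's level relative to naive was -1.13, -1.20, -1.0 and -1.34 in CO donors 1 to 4. The lymphatic chemokine CCL21 fell from 5.13 and 5.04 to between 2.49 and 3.61 (-2.13 ± 0.54, adjusted p = 0.0191). No stromal gene fell without either naive array, and 5 fell without CO donor 1.

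In the smooth muscle and pericyte list, 2 of 19 genes were higher and 2 lower. SLN, sarcolipin, which inhibits the calcium pump of the sarcoplasmic reticulum, was at 3.55 and 3.26 in naive kidneys and at 7.23, 6.79, 6.89 and 7.69 in CO kidneys (3.74 ± 0.70, adjusted p = 0.00639). It is no standard marker of smooth muscle or pericytes. SMTN, smoothelin, was 1.33 ± 0.39 higher. ACTG2, an enteric smooth muscle actin (-1.42 ± 0.37), and MYLK, the myosin light chain kinase (-0.95 ± 0.30), fell. ACTA2 (0.46) and DES (-0.16) did not pass. Of the podocyte and glomerular list only 4 genes were measured, with TCF21 lower and WT1 (-1.41) not past the threshold. No smooth muscle gene passed without either naive array, and without CO donor 1 or CO donor 3, 1 rose in each case, with 0 and 1 lower.

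Growth factor and morphogen genes changed in few cases. HBEGF, a ligand of the EGF receptor, rose (1.80 ± 0.46, adjusted p = 0.0194), while FGF9 (-1.5 ± 0.40) and the IGF-binding protein IGFBP6 (-1.16 ± 0.29) fell, out of 21 measured. In the TGF-beta, BMP and WNT list of 29, TGIF1, a corepressor of SMAD signalling, rose (2.08 ± 0.49), and TMEM100, the WNT receptor FZD2 (-1.05 ± 0.22), SFRP1 and the WNT inhibitor DKK2 (-0.87) fell. TMEM100, a membrane protein of vessels that BMP signalling induces, was at 3.25 and 3.21 in naive kidneys and below background on each CO array, at least 3.09-fold lower (adjusted p = 0.0079). Without naive 1, 1 gene of the second list fell and no other passed, without naive 2 no gene of either did, and without CO donor 1 or CO donor 3 only 1 growth factor gene fell.

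Genes of the renal proton pump fell in subunits with restricted tissue expression. ATP6V1C2 was at 7.15 and 7.49 in naive kidneys and at 4.24, 5.08, 4.21 and 3.87 in CO kidneys (-2.97 ± 0.73, 7.84-fold lower, adjusted p = 0.0168). ATP6V0A4, mutated in inherited distal renal tubular acidosis, went from 7.37 and 7.49 to 5.63, 5.73, 5.13 and 5.34 (-1.97 ± 0.46, adjusted p = 0.0131). The ammonia transporter RHBG (-1.11 ± 0.31) and CA12 also fell, 4 of 17 genes for acid transport in all (23.5%), with 0 higher. The ubiquitous pump subunits ATP6V1A (-0.50), ATP6V1E1 (0.47) and ATP6V1B2 (0.17) did not pass. None of the 4 passed without either naive array.

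Tubule-specific genes had negative medians but few calls. LRP2, megalin, the endocytic receptor of the proximal tubule, fell from 10.20 and 10.09 to 7.74, 8.02, 8.78 and 9.11 (-1.73 ± 0.48, adjusted p = 0.0274); it was the only 1 of 22 proximal tubule transporters that passed (4.55%, median -0.75). Of 38 proximal tubule enzymes 2 fell (5.26%, median -0.81), GAMT, of creatine synthesis (-1.17 ± 0.33), and QDPR, which recycles tetrahydrobiopterin (-1.02 ± 0.32). CYP27B1, which activates vitamin D, rose, from 5.04 and 4.52 to 6.90, 5.85, 6.26 and 6.69 (1.65 ± 0.33, adjusted p = 0.00769). BHMT (-1.87), DPYS (-1.41) and the organic anion transporter SLC22A6 (-1.36) did not pass. In the loop and distal nephron list 1 of 17 fell, the kinase WNK4 (-1.58 ± 0.32, adjusted p = 0.00816), and KCNJ1 (-1.85) and EGF (-0.98) did not pass.

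CO donor 4 stood apart from the other CO kidneys in the proximal tubule lists. Proximal tubule enzymes were at -0.94, -1.09 and -0.69 relative to naive in CO donors 1 to 3 and at -0.02 in donor 4, and transporters at -0.82, -1.06, -0.52 and -0.04. Untreated kidneys of donors 1 and 4 were near naive too, at -0.12 and -0.03 for enzymes and -0.05 and -0.14 for transporters. Untreated donors 2 and 3 were at -0.78 and -0.68 and at -0.66 and -0.62. Without donor 4, 6 enzymes and 5 transporters fell. The falls of the enzymes were lost without CO donor 1 or CO donor 2 and 1 was left without CO donor 3, and that of LRP2 was lost without CO donor 1. Leaving out either naive array left 0 calls in the 3 tubule lists.

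Mitochondrial genes fell by small amounts in large numbers. In the TCA cycle and respiratory chain list 21 of 58 fell (36.2%) and 0 rose, with a median of -0.57, and 43 of 58 had all CO arrays below both naive arrays, against 26.5% of all genes. SDHC, a membrane anchor of succinate dehydrogenase, had naive levels of 9.71 and 9.54 and CO levels of 7.92, 8.00, 8.55 and 8.83 (-1.30 ± 0.25, adjusted p = 0.00657). The complex I subunits NDUFS3 (-1.27 ± 0.25, adjusted p = 0.00752) and NDUFA8 (-1.09 ± 0.24, adjusted p = 0.0103) fell alike. IDH1, the cytosolic relative of the cycle's isocitrate dehydrogenase, went from 8.22 and 7.89 to 5.36, 5.75, 6.38 and 7.21 (-1.88 ± 0.47, adjusted p = 0.0186). SDHA (-0.70), SDHB (-0.84), SDHD (-0.83), PDHB (-0.99) and SUCLG1 (-0.74) also fell, so all 4 succinate dehydrogenase genes passed. The cytochrome CYCS (0.53) and citrate synthase CS (-0.21) did not.

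Fatty acid oxidation and ketone metabolism had 14 of 44 genes lower (31.8%) and 1 higher, with a median of -0.58. FABP5, a fatty acid carrier, went from 7.63 and 7.03 to 4.61, 5.65, 5.79 and 4.33 (-2.24 ± 0.52, adjusted p = 0.0136). PHYH, of peroxisomal alpha-oxidation (-1.79 ± 0.50), BDH2 (-1.46 ± 0.46), the short-chain dehydrogenases ACADS (-1.15) and HADH (-1.09), and both electron transfer flavoprotein subunits ETFA (-0.87) and ETFB (-0.90) fell. ACSL4, which activates arachidonic acid, rose by 1.93 ± 0.38 (adjusted p = 0.00731). CPT1A (0.58), ACADM (-0.48) and the regulators PPARA (0.14) and PPARGC1A (-0.47) did not pass. In the mitochondrial lists donor 4 was again the CO kidney nearest to naive, at -0.31 for the TCA cycle and respiratory chain against -0.81, -0.55 and -0.57. Untreated donors 1 to 4 were at -0.27, -0.57, -0.69 and -0.33 there. Of the falls in that list 0 passed without either naive array, 7 without CO donor 1, 13 without CO donor 3 and 33 without CO donor 4; of those in fatty acid oxidation 0, 3, 3 and 17. With the compared groups alone in the fit the falls numbered 8 and 5, with the naive and 4 h groups alone 0 and 0, and with array weights 39 and 18.

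Lipid carriers gave a single large value. APOA4, an apolipoprotein made mainly in the intestine, was dim in both naive kidneys (2.19 and 2.17) and at 7.83, 7.08, 7.32 and 7.49 in CO kidneys (5.25 ± 1.20, 38-fold, adjusted p = 0.0125). PLIN2, which coats lipid droplets, rose by 2.98 ± 0.74 (adjusted p = 0.0177), with naive arrays 1.60 apart. FDFT1, squalene synthase, fell by 1.15 ± 0.33, and 2 of 31 genes rose and 2 fell in all. Further genes among the 20 largest rises and 20 largest falls were HMGA1, a chromatin protein (3.67 ± 0.82), ALDH1B1, a mitochondrial aldehyde dehydrogenase (-2.20 ± 0.57), FAM198B (-2.14 ± 0.58), NUDT2, a hydrolase of dinucleotides (-2.13 ± 0.40), FANCL, of DNA crosslink repair (-2.12 ± 0.51), ZNF3 (-2.02 ± 0.34), ETNPPL (-1.98 ± 0.46), ISLR (-1.97 ± 0.46) and KLHDC7A (-1.96 ± 0.61). No lipid gene passed without either naive array, and without CO donor 1, 1 rose and 1 fell.

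Markers of blood and of neighbouring tissue were checked as whole lists. Of 40 granulocyte and macrophage genes 0 rose and 1 fell (5 rose with array weights and 5 with the compared groups alone in the fit). The gene that fell was CYBA, a subunit of the NADPH oxidase (-1.22 ± 0.33), which tubule cells also express; 4 had an unadjusted p under 0.05. The fall was lost without CO donor 1 or either naive array, and 3 rose without the untreated 4 h array of donor 1. The list's level above naive was 0.13 to 0.37 on the CO arrays. Of its defining markers S100A8 and S100A12 stayed at or near background (1.28 to 2.24 on CO arrays), while S100A9 was at 1.27 and 1.90 in naive kidneys and at 3.23, 3.75, 4.00 and 5.25 in CO kidneys, which did not pass. Of 24 lymphocyte genes 0 passed (1 with an unadjusted p under 0.05), and CD27 had the smallest p (-0.42 ± 0.19, adjusted p = 0.161). Of 10 erythroid and platelet genes 0 passed and 0 had an unadjusted p under 0.05, with HBB at 5.52 to 5.94 in CO and 5.96 and 6.30 in naive kidneys. Of 15 adrenal, fat and nerve genes S100B fell (-0.98 ± 0.23), and the adrenal markers CYP11A1 and STAR and the fat marker ADIPOQ stayed at or near background, at 0.95 to 1.69 on CO arrays. The adrenal marker CYP17A1 was at 1.34 and 1.00 in naive kidneys and at 1.41, 1.19, 1.27 and 2.17 in CO kidneys, above background in donor 4, and the fat marker LEP was at 2.96 and 3.14 in naive and 2.79 to 3.34 in CO kidneys. The difference between 3' and 5' probe sets of actin, a measure of RNA integrity, was 1.68 and 1.91 in naive and 1.32 to 1.88 in CO kidneys. The same difference for GAPDH was 1.03 and 1.33 in naive kidneys and 1.43, 1.54, 1.38 and 1.04 in CO donors 1 to 4, above both naive arrays in donors 1 to 3. The part of blood cells and of RNA integrity in the changes above was not tested.

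Several genes had a further probe set whose call or size differed. TNFRSF12A rose by 5.49 at a dimmer one, GPRC5A by 3.91 and 2.02, IFNAR2 by 2.48, ITGA5 by 1.13, and FOSL1 by 1.67 and, without passing, 1.23. NDUFS3 had a value of 1.71 that did not pass at one and fell by 0.96 at another. Those of CXCL12 (-1.0), LRP2 (-1.51), QDPR (-1.07), FABP5 (-0.95) and SMTN (1.12 and 0.76) had the same sign without passing, and CDH11 fell by 1.51 at one and was at -0.65, not past the threshold, at the other. ANGPT1 fell by 0.82 at a probe set near background. Values close to 0, none past the threshold, were found at other probe sets of ATF4 (-0.06), DNAJA4 (0.01), IL1R1 (-0.08), TXNRD1 (-0.12), CDC45 (-0.20), ZNF3 (-0.34), HIF1A (0.07 and -0.15), FAM198B (0.27 and 0.06) and ACTG2 (0.49). Those of ATF4, HIF1A and FAM198B had means below the background of 1.61 in both naive and CO kidneys, so a change could hardly be seen there. At further probe sets that passed, HIF1A rose by 1.53, TXNRD1 rose by 2.70 and FAM198B was at -1.44. CD55 had 1.49, 0.54 and 0.26 and THBS1 0.60 at probe sets that did not pass, the rest of their probe sets being higher.

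Whether CO itself changed these levels was asked by comparing CO with untreated transplanted kidneys at 4 h. None of the 23999 probe sets passed (0%), 787 had an unadjusted p under 0.05, and the smallest adjusted p was 0.999. At this number of arrays the test found 60% of simulated differences of 1 and 98% of those of 2. The simulated noise was independent between probe sets, with no shift shared across an array. These shares may therefore not hold for the real arrays. Over the alternatives in processing and the arrays left out, 0 passed in each. A missed threshold does not show that the groups were alike: of 123 named genes, 49 had a 95% interval of the difference within 1 of 0 either way, and the rest had wider ones.

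Several of the large rises had wide intervals here, and in these genes the untreated kidney of donor 1 was close to naive. HSPA6 was at 2.17, 9.78, 10.49 and 10.86 in untreated donors 1 to 4, so CO minus untreated was 1.89 (95% interval -1.04 to 4.82) and, without untreated donor 1, -0.16. LIF was at 0.63, 5.55, 6.40 and 6.66 in untreated kidneys (CO minus untreated 1.41, -0.53 to 3.34) and differed by 0.01 without donor 1. The enzyme HMOX1 differed by -0.07 (-0.80 to 0.66) and ICAM1 by 0.21 (-0.56 to 0.99).

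**Figure D4:**
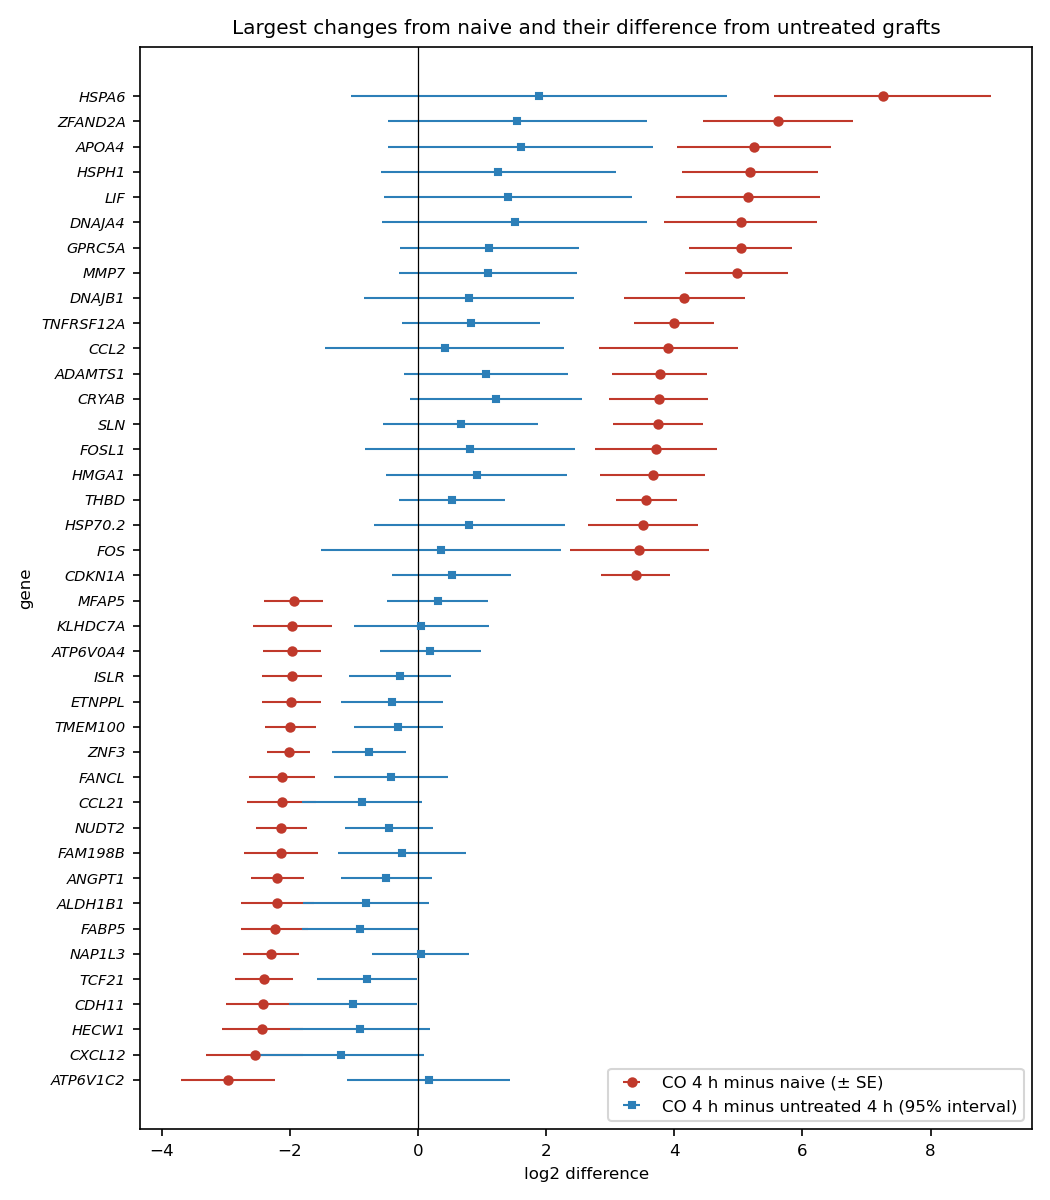
Log2 difference (x axis) of the 20 largest rises and 20 largest falls (y axis): CO 4 h minus naive with its standard error (red circles) and CO 4 h minus untreated 4 h with its 95% interval (blue squares). Differences from naive reach 7.25 for HSPA6 and -2.97 for ATP6V1C2, while most intervals of the difference from untreated kidneys hold 0.

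Of the 123 named genes, 11 had an unadjusted p under 0.05 in this limma comparison, beside 787 of all 23999 probe sets. Each had an adjusted p of 0.999. They were picked by their p on these same arrays, so agreement between donors is no separate support for them. NOS3 was higher with CO in 4 of 4 donors (5.34, 6.51, 5.88 and 4.28 against 4.63, 4.67, 5.27 and 4.01), by 0.86 (0.10 to 1.63). ASNS was higher by 1.08 (0.19 to 1.97), ME1 by 0.93 (0.18 to 1.68) and HIF1A by 0.40 (0.04 to 0.77), each in 4 of 4 donors. Without untreated donor 1 the difference was 0.86 for NOS3, 0.47 for ASNS, 0.73 for ME1 and 0.28 for HIF1A. ACTG2 was lower by 1.06, with CO minus untreated at -1.06 (-1.70 to -0.42) and CO higher in 1 of 4 donors. ZNF3 (-0.77), TCF21 (-0.80) and CDC45 (-0.47) were lower in each donor, as was CD27 (-0.33), and CDH11 (-1.02) and FABP5 (-0.91) in all but 1. Leaving out untreated donor 1 gave -0.44 for ZNF3, -0.48 for TCF21 and -0.29 for CDC45. CD27 was then at -0.40, CDH11 at -0.47, FABP5 at -0.64 and ACTG2 at -0.85. S100A9 was at 1.37, 6.38, 5.89 and 7.03 in untreated kidneys, above the CO kidney of the same donor in donors 2 to 4.

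Untreated and CO kidneys at 4 h share the naive arrays as their reference, so their differences from naive are set side by side without a test of overlap. Against naive, 361 probe sets passed in untreated kidneys (1.5%), 226 higher (0.942%) and 135 lower (0.563%), and 3254 in CO kidneys; 351 passed in both, 97.2% of the untreated calls and 10.8% of the CO calls. The heat shock median was 1.80 with CO and 1.36 without, and tubular injury 1.75 and 1.34. In both lists untreated donor 1 stood apart, at a mean level above naive of -0.04 and 0.27, while untreated donors 2 to 4 were at 1.90 to 2.15 and 1.84 to 2.14, within the range of the CO arrays. Other medians were, in the same order, stromal genes -1.32 and -0.52, granulocyte and macrophage genes 0.10 and 0.86, and the TCA cycle and respiratory chain -0.57 and -0.49. Stromal levels were at -0.08, -0.19, -0.94 and -1.25 in untreated donors 1 to 4, so donor 2 and donor 1 were near naive there. Granulocyte and macrophage levels were at 0.57 to 1.65 in untreated kidneys, above the 0.13 to 0.37 of the CO kidneys without overlap; no gene of the list passed in the direct comparison.

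How the CO kidneys' pattern stood later was read from CO kidneys at 24 h, which came from other donors and other array batches. Between 24 h and 4 h, 4226 probe sets passed (17.6%), 2440 higher (10.2%) and 1786 lower (7.44%) at 24 h. With batch as a block 0 passed and 2177 had an unadjusted p under 0.05; the CO 24 h arrays share no batch with the CO 4 h or naive arrays, so time and batch cannot be told apart between the CO groups. Of the 3254 probe sets that passed at 4 h against naive, 1210 passed here and 2044 did not. The CO 4 h arrays enter both differences with opposite sign, so the direction of these 1210 is not read as a return toward naive. Of 36 heat shock genes, 22 were lower at 24 h and 1 higher, where 8.51% of all genes were lower and 17.9% higher. HSPA6 fell by 4.77 to a mean of 5.44, DNAJA4 by 4.74 to 4.14, near the naive arrays, and HSP70.2 by 3.04 to 9.05. FOS was 2.86 lower and GADD45B 2.15 lower.

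Other genes went up between the times. FABP5 was 3.41 higher at 24 h, CDH11 2.66, CCL21 2.40, CXCL12 1.99, CDC45 1.88 and TCF21 1.76, and 7 of 24 stromal genes were higher and 0 lower. Of 36 cell cycle genes 18 were higher and 0 lower, and 13 of 58 TCA cycle and respiratory chain genes were higher and 3 lower. Over all genes 17.9% were higher at 24 h and 8.51% lower. The TCA cycle and respiratory chain counts were near these shares and are not read as a change of that list. Some differences from naive were greater at 24 h: 22 of 38 proximal tubule enzymes were lower at 24 h than at 4 h and 0 higher, with a median against naive of -2.03. Against naive, 2804 probe sets passed at 24 h (11.7%), 1380 higher (5.75%) and 1424 lower (5.93%). CYP27B1, raised at 4 h, was 2.44 lower at 24 h, at a mean of 3.99. MMP7 had a mean of 11.03 at 24 h, 1.94 above 4 h, which did not pass in limma (adjusted p = 0.0504), and the differences of ICAM1 (-0.01) and CCL2 (0.36) did not pass either.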

How the data were processed

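RNA of 18 pig kidneys was measured on Affymetrix pig arrays. The deposited values are log2 levels per probe set that the authors normalised with RMA, per the submitters' processing notes; its version and settings are not given in the sources used here. Precision is limited by the number of arrays. The table holds 24123 probe sets; without its 124 controls, 23999 entered the tests, with no filter on dim ones. The platform annotation gives 10069 of these 1 symbol, 198 several and 13732 none. A gene stands for its brightest probe set by mean over all arrays.

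The model, fitted in R 4.3.3 with lmFit and eBayes of limma 3.58.1, held the means of all 5 groups over the 18 arrays and no block. Tests were two-sided, with Benjamini-Hochberg adjustment and a threshold of 0.05. Background, 1.61, is the 95th percentile of 17 tag control probe sets. On simulated data with 200 changed probe sets, CO 4 h versus naive found 10% of differences of 0.5, 32% of 1, 62% of 1.5 and 94% of 2. Shifts shared across an array were not simulated, so real arrays may give other shares. Named genes were the 20 largest rises and 20 largest falls whose groups did not overlap, up to 4 members that passed from each of 34 lists (or the member of smallest p) and 16 chosen genes. Members, lists and tests were chosen with earlier results of these data known. Of 1570 list entries, 1030 were measured under the exact symbol.

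Donor numbers pair CO with untreated kidneys, per the labels. After group means were removed, partner arrays at 4 h correlated at -0.201 to 0.569, and the partner was the closest untreated array for 2 of 4 donors. Alternatives changed the variance model, the dim filter, the scaling, the weights of arrays, the blocks (batch, or donor with statmod 1.5.0), the groups in the fit and the arrays kept. Python 3.11.15 and matplotlib 3.10.9 made the figures.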

Additional observations from a re-analysis of the deposited data

Results flagged for a closer look

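In 9 of the 123 named genes 1 CO array at 4 h stood far from the other 3. Chance alone gives about 1 such group in 20, so this count is not far from chance. Donor 2 was the array that stood apart in 6 of them. It was lower than the others in HSPA6 (8.12, with the nearest at 10.74), DNAJB1 (9.22, nearest 11.41), HSP70.2 (10.92, nearest 12.48) and CYR61 (8.22, nearest 8.89), and higher in ME1 (5.90, nearest 4.78) and FGF9 (3.47, nearest 2.26). It was also the one CO array that shares its batch with naive 2. Donor 1 was lower in WNK4 (3.46, nearest 4.21) and higher in CDKN3 (5.97, nearest 5.43), and donor 4 was lower in CD46 (8.51, nearest 9.25).

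In 43 named genes the CO kidneys differed between 24 h and 4 h by the test of that difference in limma, with time and array batch not separable. These are log2 differences, 24 h minus 4 h. Chaperones were lower at 24 h: HSPA6 by -4.77, DNAJA4 by -4.74, DNAJB1 by -3.56, HSPH1 by -3.11, HSP70.2 by -3.04 and CRYAB by -2.65. Stress and early genes followed, with FOS at -2.86, GADD45B at -2.15, ASNS at -1.40, CDKN1A at -1.38, HBEGF at -1.29, TGIF1 at -1.26 and ATF4 at -1.16. APOA4 was at -2.96, SLN at -2.66, PLIN2 at -2.48, CYP27B1 at -2.44, GPRC5A at -2.24, THBD at -2.19, IL1R1 at -1.49, THBS1 at -0.94 and PSME4 at -0.66.

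Some genes below naive at 4 h were higher at 24 h, while others, such as ATP6V1C2, LRP2, SDHC, PHYH and ALDH1B1, did not pass. The CO 4 h arrays enter both differences. The stromal and vascular genes CDH11 (2.66), CCL21 (2.40), CXCL12 (1.99), TCF21 (1.76), NAP1L3 (1.64), FAM198B (1.84), TMEM100 (1.36), ACTG2 (1.25), IGFBP6 (0.998) and FZD2 (0.96) were among those that were higher. So were the metabolic genes FABP5 (3.41), IDH1 (1.44), NDUFS3 (1.25), FDFT1 (1.22) and NDUFA8 (0.98), and CDC45 (1.88), FANCL (1.34) and ZNF3 (1.31). ETNPPL (-1.55), GAMT (-0.84) and HMOX2 (-0.72, not called at 4 h) were lower at 24 h than at 4 h.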

How the results depend on the processing

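For CO 4 h versus naive, 3254 probe sets passed. The count was 3034 with an intensity trend, 3486 without the dimmest 25%, 3175 with arrays centred on their medians, 3300 after quantile normalisation, 2862 with batch as a block and 2678 with the compared groups alone. It was 7037 with array weights and 0 with the naive and 4 h groups alone. Leaving out 1 array of either group gave 1 to 3923. Of the 115 named genes that passed, 111 no longer did without naive 1, 115 without naive 2, 40 without CO donor 1, 27 without CO donor 3 and 115 with the naive and 4 h groups alone. Over all 6765 genes with a symbol, 663 rose and 726 fell, against 1096 and 1559 with array weights and 578 and 442 with the compared groups alone. The tubular injury median exceeded that of heat shock chaperones without the dimmest 25% (2.08 against 1.80), after quantile normalisation (1.79 and 1.76), with the batch block (1.79 and 1.70) and without naive 2 or CO donor 1, 3 or 4. The cause of these changes was not tested. The difference of NOS2, which did not pass, turned from 0.24 to -0.0944 without naive 1 and was 0.58 without naive 2.

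Between CO and untreated kidneys at 4 h, 0 passed under each setting and each array left out, with 488 to 1655 at an unadjusted p under 0.05. For CO 24 h versus CO 4 h, the 4226 became 6934 with array weights, 0 with batch as a block and 2720 to 4781 with 1 array left out. With donor as a random replicate block the counts were 3242, 0 and 4260, and with donor as a fixed block the CO and untreated kidneys at 4 h again gave 0, so the block changed none of these counts by over 1.5 times. The untreated 4 h array of donor 1 was left out after the data were seen, which gave 4146 for CO 4 h versus naive and 4860 for CO 24 h versus CO 4 h. Probe sets near background bound what could be seen for dim genes such as IL6, LIF and CXCL8.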

Other observations

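Outside the lists, 1156 genes with a symbol passed at 4 h, 508 higher and 648 lower in CO than in naive kidneys. The lists held 978 of the 6765 genes with a symbol, and 1389 of these 6765 passed (20.5%). The share outside the lists was close to that over all genes. The genes given here were chosen from among the largest differences after their values were seen. The transporter SLC7A1, which imports arginine and lysine, was at 4.73 and 4.92 in naive kidneys and at 8.15, 7.96, 7.94 and 8.05 in CO kidneys (3.20 ± 0.54, adjusted p = 0.00473), and SLC38A1, a glutamine transporter, was 2.91 higher; amino acid transporters were not examined as a group. The 4 CO arrays of SLC7A1 were nearly equal. LGALS3, the lectin galectin-3, rose by 3.12, LMNA, of the nuclear lamina, by 3.06, the gap junction gene GJA1 by 2.35, PDPN, podoplanin, by 2.24, the cholesterol exporter of lysosomes NPC1 by 2.95, and TEAD4, the DNA-binding partner of YAP, by 3.11. MLF1 was at 2.81 and 2.53 in naive kidneys and at 5.87, 6.34, 5.38 and 6.40 in CO kidneys (3.33 ± 0.61, adjusted p = 0.00608). RLN2, relaxin, was below background in naive kidneys and at 4.83, 2.56, 4.87 and 4.75 in CO kidneys, at least 6.26-fold higher (adjusted p = 0.0272), with donor 2 far below the others.

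Falls outside the lists included regulators and metabolic enzymes. LHX1, a homeobox factor of nephron development (-1.73), KLF15, a transcription factor of metabolism (-1.72), and PTH1R, the parathyroid hormone receptor (-1.49), fell. The mitochondrial enzymes AMT, of glycine cleavage (-1.85), OXSM, of mitochondrial fatty acid synthesis (-1.86), CHDH, choline dehydrogenase (-1.52), TST, a sulfurtransferase (-1.46), and COQ9, of coenzyme Q synthesis (-1.46), were lower, as were the mitochondrial nuclease ENDOG (-1.57) and the peroxisome assembly gene PEX2 (-1.50).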
